A study of Homo sapiens with 12 samples.

Results

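Hypoxia-inducible factors (HIFs) and the proteins that read oxygen for them were followed in cytoplasmic RNA through 10 genes. They are the HIF subunits HIF1A, EPAS1 and ARNT, the hydroxylases EGLN1, EGLN2, EGLN3 and HIF1AN, the ubiquitin ligase subunit VHL, and VEGFA and CA9 as HIF targets. The genes were chosen from a list by name, and every array probe whose accession belongs to one of them was used, which gave 12 probes of 34127, or 10 of 27522 gene names. HIF1A and VEGFA had 2 probes each, and the other genes had 1 probe each. All samples were U2OS cells, a human osteosarcoma line, grown in serum-containing medium and transfected with 20 nM siRNA and Lipofectamine2000. The 4 groups were control siRNA, DBP5 siRNA, GLE1 siRNA and IPPK siRNA, with 3 arrays each, from 3 independent array experiments by the methods. DBP5 is a helicase that releases mRNA from its export receptor at the nuclear pore, GLE1 activates it, and IPPK makes the inositol hexakisphosphate that GLE1 needs, so the comparisons ask how the loss of each changes the mRNA content of the cytoplasm. RNA came from the fraction that NP40 lysis buffer releases, 48 h after transfection by the methods. The methods list 1 siRNA sequence for DBP5 and 2 each for control, GLE1 and IPPK, and the array labels do not say which was used.

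HIF is a heterodimer of an oxygen-regulated alpha subunit and the constitutive partner ARNT. With oxygen, the EGLN prolyl hydroxylases mark the alpha subunit for VHL, which has it degraded, and HIF1AN hydroxylates an asparagine that otherwise binds coactivators. When oxygen falls, the alpha subunit accumulates and switches on genes for glycolysis, vessel growth and pH control, and also EGLN1 and EGLN3, which feed back on it. Most of this control acts on protein, and the arrays measured mRNA alone, so HIF protein and its activity were not analysed here.

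Each siRNA lowered its own target most, and other targets as well. DDX19B, the array's name for DBP5, was at 0.0643 ± 0.00121 of control after DBP5 siRNA, GLE1 was at 0.102 ± 0.0274 after GLE1 siRNA and IPPK was at 0.186 ± 0.00815 after IPPK siRNA (SD, n = 3 arrays each). Of the genes not targeted, IPPK fell to 0.42 ± 0.0142 with DBP5 siRNA (limma adjusted p = 7.9e-08), DDX19B to 0.49 ± 0.0237 with GLE1 siRNA (limma adjusted p = 3.6e-08) and GLE1 to 0.717 ± 0.0464 with IPPK siRNA (limma adjusted p = 0.0199). Ratios to control are differences of group means of log2 intensity on a linear scale, given with the SD over the 3 arrays of the knock-down. Well above background were 73.4% to 77.7% of probes on control, DBP5 and GLE1 siRNA arrays and 70.9% to 73.8% on IPPK siRNA arrays. Of 8 mesenchymal and osteoblast genes, 7 were well above background on all 12 arrays, VIM and SPARC among them. Levels within this list changed in both directions. COL1A1 fell to 0.767 ± 0.0535 after DBP5 and 0.252 ± 0.02 after IPPK siRNA. CDH2 rose to 1.40 ± 0.25, 2.58 ± 0.299 and 1.87 ± 0.0923 after DBP5, GLE1 and IPPK siRNA. RUNX2 fell to 0.615 ± 0.027 after IPPK siRNA, where its dimmer probe was at 1.05. Of 8 epithelial, blood and endothelial genes, 3 were (EPCAM, PTPRC and CDH5), while HBB was on 0 of 3 arrays of every group. The epithelial CDH1 was well above background on 0 of 3 control arrays, 3 of 3 DBP5, 3 of 3 GLE1 and 2 of 3 IPPK siRNA arrays. CDH1 rose from a mean log2 intensity of 3.48 in control to 4.42, 6.78 and 4.78 after DBP5, GLE1 and IPPK siRNA. The summed intensity of the 6 kept genes of this second list was 892 to 1073 in control, 647 to 755 after DBP5, 780 to 941 after GLE1 and 532 to 742 after IPPK siRNA. EPCAM is the brightest of them and sets most of this sum. It was at 0.657 ± 0.0296, 0.735 ± 0.119 and 0.528 ± 0.182 of control in the 3 knock-downs, and the GLE1 value did not pass. The summed intensity of 4 nuclear-retained RNAs (KCNQ1OT1, MALAT1, MEG3 and MIAT) was 7167 to 7280 in control, 9235 to 10558 after DBP5, 11688 to 11792 after GLE1 and 7787 to 8251 after IPPK siRNA. The brightest of them, KCNQ1OT1, rose in every knock-down and sets most of this sum. MALAT1 fell to 0.474 ± 0.144 after IPPK siRNA (limma adjusted p = 0.0035), and MIAT was well above background on all control arrays but on 0 of 3 arrays each after GLE1 and IPPK siRNA. The part of these differences in the results below was not tested. All values are relative to the other genes of an array, so a loss shared by all mRNA cannot be seen, and in cultures taken whole, fewer cells with an mRNA and less of it per cell cannot be told apart.

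HIF binds DNA at short cores, so the letters ACGTG, and likewise their variant that starts with a G, GCGTG, were looked for on both strands in the 250 bases before each RefSeq start site (GRCh38.p14). The table held 10 such windows for 8 of the genes, and VHL and VEGFA had none there. ACGTG was in 3 windows, those of CA9, EGLN1 and 1 of 2 windows of EGLN2, which are printed here since these 3 genes changed in different directions after GLE1 and IPPK siRNA. The cores are in capitals and the sequences run 5′ to 3′ on the strand of the gene.
CA9, chr9:35673678-35673927, plus strand: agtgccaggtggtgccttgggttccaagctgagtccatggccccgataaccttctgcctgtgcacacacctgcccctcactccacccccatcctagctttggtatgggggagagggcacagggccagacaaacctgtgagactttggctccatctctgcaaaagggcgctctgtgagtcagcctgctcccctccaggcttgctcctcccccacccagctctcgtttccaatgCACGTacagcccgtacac
EGLN1, chr1:231422288-231422537, minus strand: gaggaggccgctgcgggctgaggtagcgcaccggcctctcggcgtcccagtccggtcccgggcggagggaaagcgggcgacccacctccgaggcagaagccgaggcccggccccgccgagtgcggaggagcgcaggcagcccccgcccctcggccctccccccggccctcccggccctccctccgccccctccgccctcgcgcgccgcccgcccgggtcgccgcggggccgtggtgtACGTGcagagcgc
EGLN2, chr19:40798941-40799190, plus strand: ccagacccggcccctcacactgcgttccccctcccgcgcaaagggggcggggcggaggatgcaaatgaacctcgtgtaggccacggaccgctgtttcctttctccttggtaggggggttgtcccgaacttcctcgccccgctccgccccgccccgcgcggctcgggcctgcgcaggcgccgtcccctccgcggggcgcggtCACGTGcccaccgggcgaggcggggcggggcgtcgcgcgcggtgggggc
The core of CA9 lies on the opposite strand, with its first letter 18 bases before the start site, and that of EGLN1 is 13 bases before it. In EGLN2 the cores of both strands overlap as CACGTG. The variant that starts with G was alone in 1 window of EPAS1 and 1 of 2 windows of HIF1A, and the windows of ARNT, HIF1AN and EGLN3 held neither. Of all 35116 windows of the table, 43.2% held at least 1 of the cores and 18.5% held ACGTG. Of the 66 windows of 40 listed HIF target genes, 75.8% held at least 1 core and 48.5% held ACGTG. These letters describe the windows and do not show binding.

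A gene was kept for testing where 1 siRNA or more had its probe well above background on each of its arrays. All 10 genes were kept, and 9 of them, all except CA9, were well above background on all 12 arrays. By limma with Benjamini-Hochberg adjustment over 20821 genes at 0.05, 6 of 10 changed after DBP5 siRNA (5 lower and 1 higher), against 54.3% of all genes. After GLE1 siRNA 9 of 10 changed (6 lower and 3 higher), against 62%. After IPPK siRNA 8 of 10 changed (4 lower and 4 higher), against 55.4%. CA9, counted as lower in each, was kept through its control arrays, where it was high, so that the fit could show little but a fall. Of the other 9 genes 5, 8 and 7 changed. With 10 genes these counts say little, and the results lie in which genes moved and which way. The 3 comparisons share the control arrays. Directly between knock-downs, 7 of 10 differed for GLE1 against DBP5 (54.6% of all genes), 6 for GLE1 against IPPK (60.2%) and 7 for DBP5 against IPPK (48.9%).

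**Figure D1:**
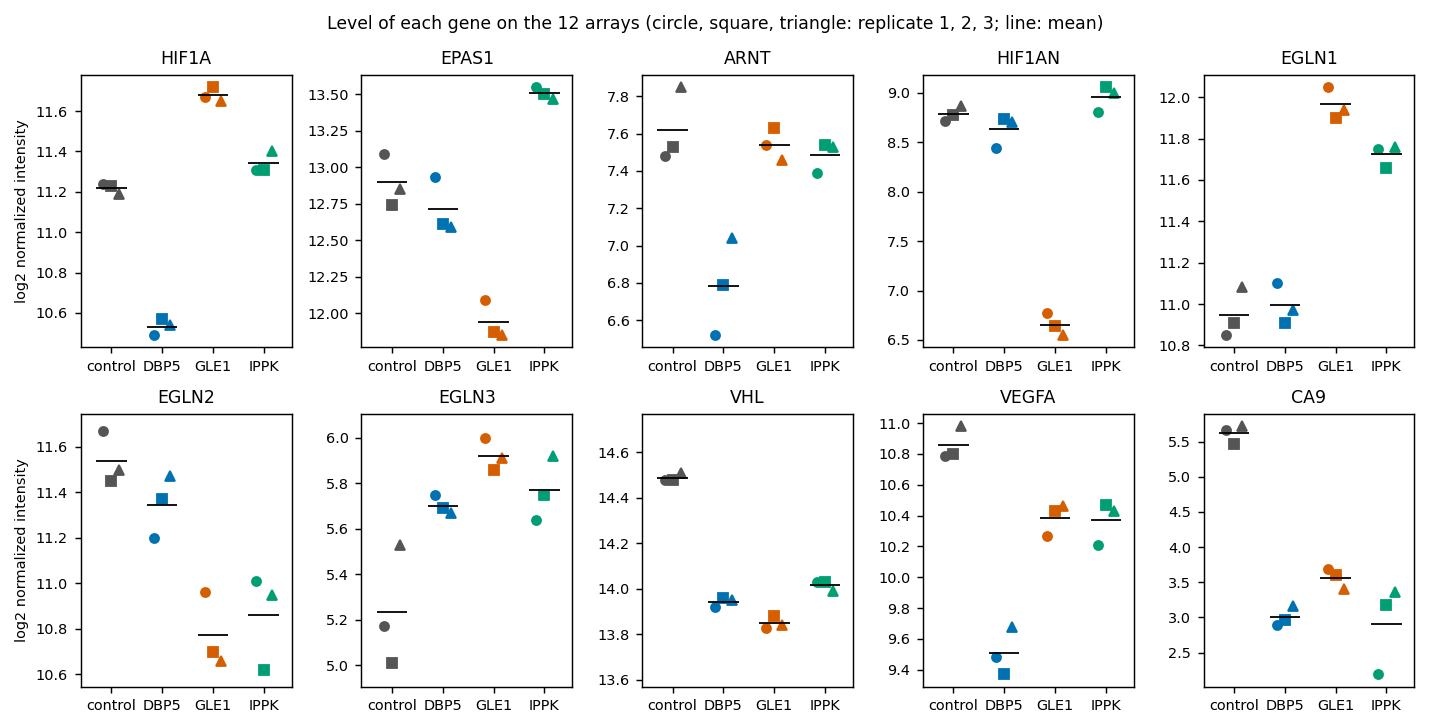
The log2 normalized intensity (vertical axes, each with its own range of at least 1.2 units) of the probe used for each of the 10 genes is plotted by siRNA, with 1 point per array and a line at the mean of 3. HIF1A points of the 4 siRNAs do not overlap, HIF1AN is low on the 3 GLE1 siRNA arrays alone, and VHL and CA9 are highest on the 3 control arrays.

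HIF1A, the alpha subunit found in most tissues, moved in opposite directions after DBP5 and GLE1 siRNA. Its log2 intensity was 11.24, 11.23 and 11.19 on the control arrays, 10.49, 10.57 and 10.54 after DBP5 siRNA, 11.67, 11.72 and 11.65 after GLE1 siRNA and 11.31, 11.31 and 11.40 after IPPK siRNA. By this probe no arrays of different siRNAs overlapped, and the order from lowest to highest was DBP5, control, IPPK and GLE1. HIF1A fell to 0.621 ± 0.0183 of control after DBP5 siRNA (SD, n = 3; limma adjusted p = 6.1e-07) and rose to 1.38 ± 0.032 after GLE1 siRNA (limma adjusted p = 7.5e-06). GLE1 siRNA left 2.22 times the level seen after DBP5 siRNA (95% interval 2.06 to 2.38; limma adjusted p = 1.9e-08). The dimmer HIF1A probe gave 0.581 ± 0.0315 after DBP5 siRNA and 1.39 ± 0.0246 after GLE1 siRNA, and by it control and IPPK siRNA arrays overlapped. After IPPK siRNA the ratio was 1.09 ± 0.0387 with a limma adjusted p of 0.0449, and this call does not hold well: over 24 alternatives the adjusted p ran from 0.0168 to 0.174, and 16 of them did not pass. Among these, the fit with the replicate number as a block gave 0.0556, the dimmer probe gave 0.0612, and leaving out any 1 array lost the call for 10 of 12 arrays.

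EPAS1, which encodes HIF2A, the alpha subunit with a more restricted tissue range, moved against HIF1A after GLE1 siRNA. The control arrays were at 13.09, 12.74 and 12.85, the DBP5 siRNA arrays at 12.93, 12.61 and 12.59, the GLE1 siRNA arrays at 12.09, 11.87 and 11.85 and the IPPK siRNA arrays at 13.55, 13.50 and 13.47. All GLE1 siRNA arrays lay below and all IPPK siRNA arrays above every other array, while control and DBP5 siRNA overlapped. EPAS1 fell to 0.514 ± 0.0477 of control after GLE1 siRNA (SD, n = 3; limma adjusted p = 2.7e-05) and rose to 1.53 ± 0.043 after IPPK siRNA (limma adjusted p = 0.00089; 4.8e-05 to 0.0501 over 23 alternatives, the highest and the only one not past the threshold being the methods' t-test). After DBP5 siRNA it was at 0.88 ± 0.12 (95% interval 0.74 to 1.05), which did not pass (limma adjusted p = 0.203), although it did with the replicate number as a block (limma adjusted p = 0.0354; 0.0354 to 0.574 over 23 alternatives). Its level after GLE1 siRNA was 0.337 of that after IPPK siRNA (limma adjusted p = 7.2e-07).

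ARNT, the partner that every alpha subunit needs, was lower after DBP5 siRNA and in no other knock-down past the threshold. Control arrays were at 7.48, 7.53 and 7.85 and DBP5 siRNA arrays at 6.52, 6.79 and 7.04, below all others. ARNT fell to 0.559 ± 0.101 of control there (SD, n = 3; limma adjusted p = 0.00031), and the DBP5 level was also below that of GLE1 (limma adjusted p = 0.00061) and of IPPK siRNA (limma adjusted p = 0.00125). Both of these calls were lost with the methods' t-test (adjusted p = 0.109 and 0.0773), 1 of 23 alternatives. The GLE1 siRNA arrays (7.54, 7.63 and 7.46) and IPPK siRNA arrays (7.39, 7.54 and 7.53) overlapped control, with 95% intervals of the ratio of 0.772 to 1.16 and 0.743 to 1.12. HIF1A and ARNT thus both fell after DBP5 siRNA, and the difference between their changes there was -0.15 on the log2 scale (95% interval -0.44 to 0.13), which did not pass.

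HIF1AN, the asparaginyl hydroxylase also called FIH, had the largest measured change of the 9 genes that were well above background throughout. Its log2 intensity was 8.72, 8.78 and 8.87 in control, 8.44, 8.74 and 8.71 after DBP5 siRNA, 6.77, 6.64 and 6.55 after GLE1 siRNA and 8.81, 9.06 and 9.0 after IPPK siRNA. The GLE1 siRNA arrays were far below all others, and the control arrays overlapped those of DBP5 and IPPK siRNA. HIF1AN fell to 0.227 ± 0.0172 of control after GLE1 siRNA (SD, n = 3; limma adjusted p = 2.1e-08), while the ratios after DBP5 and IPPK siRNA had 95% intervals of 0.771 to 1.04 and 0.965 to 1.3 and did not pass. The fall after GLE1 siRNA was by 2.14 on the log2 scale, and by 1.54 in the processed values of the authors, which follow the spot signal without background subtraction. IPPK siRNA arrays were higher than DBP5 siRNA arrays (limma adjusted p = 0.0189; 0.00944 to 0.0716 over 23 alternatives), a call lost without DBP5 siRNA array 1 (0.0613), without IPPK siRNA array 2 (0.0716) or without IPPK siRNA array 3 (0.0584), and with the 6 arrays compared alone (0.0584).

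**Figure D2:**
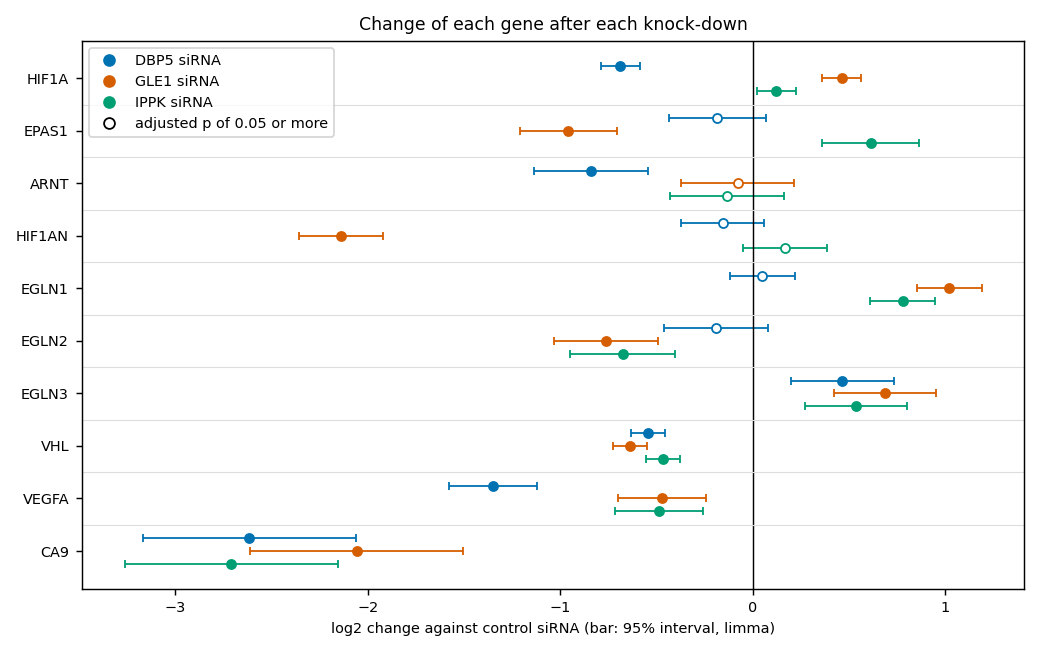
The log2 change against control siRNA (horizontal axis) of the 10 genes is shown for each knock-down as a point with limma's 95% interval from 12 arrays, open where the adjusted p was 0.05 or more. HIF1A and EPAS1 lie on opposite sides of 0 after GLE1 siRNA, HIF1AN stands at -2.14 after GLE1 siRNA alone, and VHL, VEGFA and CA9 lie below 0 in all 3 knock-downs, with CA9 at or near background after each.

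The 3 prolyl hydroxylases did not move together. EGLN1, also called PHD2 and the main oxygen sensor for HIF1A, was at 10.85, 10.91 and 11.08 in control and at 11.10, 10.91 and 10.97 after DBP5 siRNA, which overlapped. The GLE1 siRNA arrays were at 12.05, 11.90 and 11.94 and the IPPK siRNA arrays at 11.75, 11.66 and 11.76, all above every control array. EGLN1 rose to 2.03 ± 0.114 of control after GLE1 siRNA (SD, n = 3; limma adjusted p = 7.4e-07) and to 1.71 ± 0.0651 after IPPK siRNA (limma adjusted p = 8.8e-06). After DBP5 siRNA the ratio was 1.03, with a 95% interval of 0.921 to 1.16. GLE1 was above IPPK siRNA by 1.18 times (limma adjusted p = 0.0178; 0.00838 to 0.068 over 23 alternatives), a call lost without GLE1 siRNA array 1 (0.068) or IPPK siRNA array 2 (0.0662).

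EGLN2, or PHD1, went the other way. It was at 11.67, 11.45 and 11.50 in control, 11.20, 11.37 and 11.47 after DBP5 siRNA, 10.96, 10.70 and 10.66 after GLE1 siRNA and 11.01, 10.62 and 10.95 after IPPK siRNA. GLE1 and IPPK siRNA arrays overlapped each other and lay below all arrays of control and DBP5 siRNA, which also overlapped each other. EGLN2 fell to 0.589 ± 0.0675 of control after GLE1 siRNA (SD, n = 3; limma adjusted p = 0.00025) and to 0.625 ± 0.0873 after IPPK siRNA (limma adjusted p = 0.00074). The ratio after DBP5 siRNA had a 95% interval of 0.725 to 1.06.

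EGLN3, or PHD3, whose transcript is strongly induced by HIF in many cells, was dim here. Control arrays were at 5.17, 5.01 and 5.53, DBP5 siRNA arrays at 5.75, 5.69 and 5.67, GLE1 siRNA arrays at 6.0, 5.86 and 5.91 and IPPK siRNA arrays at 5.64, 5.75 and 5.92. Every knock-down array was above every control array. Relative to control, EGLN3 rose to 1.38 ± 0.0418 after DBP5, 1.61 ± 0.0785 after GLE1 and 1.45 ± 0.146 after IPPK siRNA (SD, n = 3 each; limma adjusted p = 0.00696, 0.00048 and 0.003). In log2 these are 0.47, 0.69 and 0.54, against 0.22, 0.31 and 0.23 in the processed values of the authors. Each of these calls was lost under 1 of 23 alternatives, the methods' t-test, with adjusted p-values of 0.182, 0.0802 and 0.0754 (over all alternatives 0.00035 to 0.182, 3.2e-05 to 0.0802 and 0.00017 to 0.0754). No 2 knock-downs differed past the threshold, and their ratios to each other had 95% intervals between 0.792 and 1.4.

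VHL, which recognises the hydroxylated alpha subunit, fell in every knock-down with a narrow spread. It was at 14.48, 14.48 and 14.51 in control, 13.92, 13.96 and 13.95 after DBP5 siRNA, 13.83, 13.88 and 13.84 after GLE1 siRNA and 14.03, 14.03 and 13.99 after IPPK siRNA. All knock-down arrays lay below all control arrays. Relative to control, VHL fell to 0.686 ± 0.00833 after DBP5, 0.643 ± 0.0127 after GLE1 and 0.724 ± 0.0109 after IPPK siRNA (SD, n = 3 each; limma adjusted p = 1.1e-06, 1.8e-07 and 3e-06). The level after GLE1 siRNA was 0.889 of that after IPPK siRNA (limma adjusted p = 0.00344; 0.00296 to 0.0988 over 23 alternatives, the highest in the processed values of the authors), and DBP5 siRNA lay between them without passing against either (limma adjusted p = 0.0717 and 0.132).

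VEGFA, the vessel growth factor and a HIF target, was lower in all 3 knock-downs by its brighter probe. That probe was at 10.79, 10.80 and 10.98 in control, 9.48, 9.37 and 9.68 after DBP5 siRNA, 10.27, 10.43 and 10.46 after GLE1 siRNA and 10.21, 10.47 and 10.43 after IPPK siRNA. DBP5 siRNA arrays were lowest, and GLE1 and IPPK siRNA arrays overlapped between them and control. By this probe VEGFA fell to 0.392 ± 0.044 after DBP5, 0.721 ± 0.0511 after GLE1 and 0.714 ± 0.069 after IPPK siRNA (SD, n = 3 each; limma adjusted p = 1.5e-06, 0.00208 and 0.00203). The dimmer probe, designed on another VEGFA transcript, was at 8.67, 8.71 and 8.90 in control, 7.21, 7.30 and 7.06 after DBP5 siRNA, 7.67, 7.60 and 7.74 after GLE1 siRNA and 8.70, 8.74 and 8.79 after IPPK siRNA. Its ratios were 0.336 ± 0.0283 and 0.468 ± 0.023 after DBP5 and GLE1 siRNA, and 0.986 ± 0.0298 after IPPK siRNA, where it overlapped control (95% interval 0.873 to 1.11). The probes thus disagreed on IPPK siRNA and on the order of GLE1 and IPPK siRNA: the ratio of GLE1 to IPPK siRNA was 1.01 by the brighter probe (95% interval 0.864 to 1.18) and 0.475 by the dimmer one (limma adjusted p = 8.5e-07 over all probes).

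**Figure D3:**
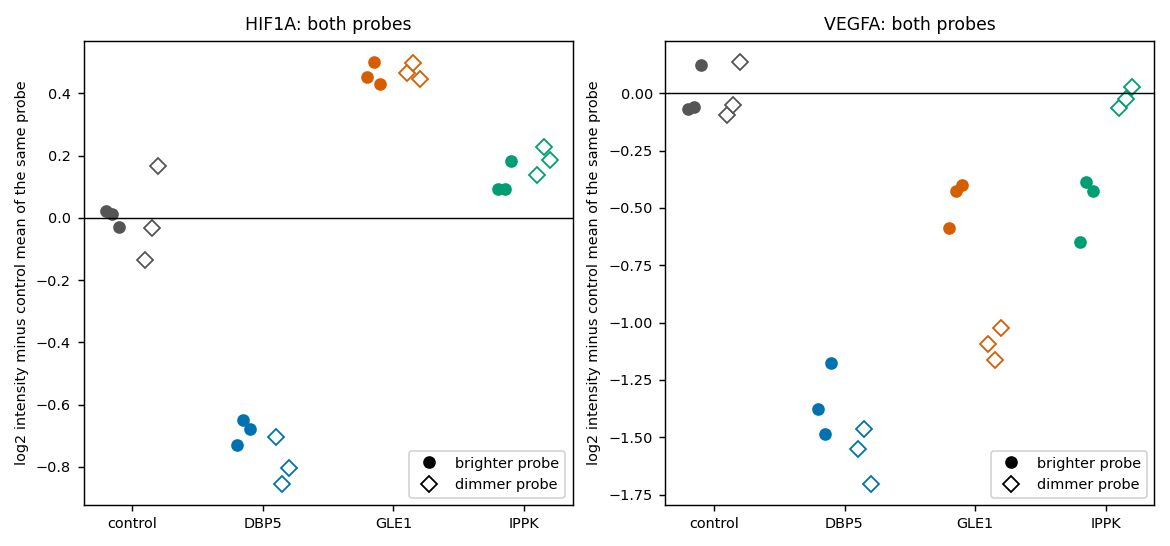
Log2 intensity minus the control mean of the same probe (vertical axis) is plotted for each array, by siRNA, for the 2 probes of HIF1A (left) and of VEGFA (right), with filled circles for the brighter and open diamonds for the dimmer probe. The HIF1A probes lie together in each knock-down, while the VEGFA probes part after GLE1 siRNA and after IPPK siRNA, where the dimmer probe stays at control level.

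CA9, a membrane carbonic anhydrase that is among the most HIF-dependent genes known, was dim in control and at or near background after knock-down. It was at 5.66, 5.47 and 5.72 on the control arrays, all well above background. The DBP5 siRNA arrays (2.89, 2.96 and 3.16) and IPPK siRNA arrays (2.19, 3.17 and 3.36) were well above background in 0 of 3, and the GLE1 siRNA arrays (3.69, 3.60 and 3.40) in 1 of 3. No knock-down array reached a control array. For a probe not well above background, the fold was taken against the lowest signal that counted as well above background on each array, or the probe's own value where higher. That signal is the lowest over all probes of an array, so it is not the limit of the CA9 spot itself. On this measure CA9 was 4.09-fold lower after DBP5 siRNA and 3.05-fold lower after IPPK siRNA. After GLE1 siRNA, with 1 of 3 arrays well above background, it was 3.60-fold lower on the same measure. CA9 passed the filter on dim probes through the control arrays alone, so these folds are descriptions and no p is given with them. In the processed values of the authors the 3 falls were by 0.64, 0.60 and 0.66 on the log2 scale after DBP5, GLE1 and IPPK siRNA. CA9 is 1 of the 6 genes counted for GLE1 against IPPK siRNA, where most of its values are at background and no order is read from them.

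HIF1A was then set against the other 9 genes by subtracting its log2 value on each array from every gene before the fit. A gene passes when its change differs from that of HIF1A. After DBP5 siRNA 8 of 9 differed, against 81.5% of 20820 genes, after GLE1 siRNA 8 of 9, against 73.1%, and after IPPK siRNA 7 of 9, against 57.4%. These shares are high among all genes as well, so the sizes matter more than the counts. CA9 is among the genes that differed in each knock-down, and no size is given for it, since it was kept through its high control arrays alone and its knock-down values are at or near background. Of the other 8 genes 7, 7 and 6 differed. After GLE1 siRNA, when HIF1A rose, the changes of EPAS1, HIF1AN, EGLN2 and VHL minus that of HIF1A were -1.42, -2.60, -1.22 and -1.10 on the log2 scale, all below it (limma adjusted p = 1.8e-06, 2.3e-09, 3.1e-06 and 1.8e-08). EGLN1 lay above it by 0.56 (limma adjusted p = 0.00026), and EGLN3 did not differ past the threshold (0.22, 95% interval -0.05 to 0.50). VEGFA, by its brighter probe here and below, differed from HIF1A by -0.93 there. After DBP5 siRNA, when HIF1A fell, VEGFA fell further, with a difference of -0.66 (limma adjusted p = 0.00019), and VHL fell less, with a difference of 0.14 (limma adjusted p = 0.0278). There EPAS1, HIF1AN, EGLN1, EGLN2 and EGLN3 lay above HIF1A by 0.50, 0.53, 0.74, 0.49 and 1.15 (limma adjusted p at most 0.00336). After IPPK siRNA, VEGFA differed from HIF1A by -0.61, although its dimmer probe changed by only -0.02 against control there, beside 0.12 for HIF1A. In the same knock-down EPAS1, EGLN1 and EGLN3 lay above HIF1A by 0.49, 0.66 and 0.41 (limma adjusted p at most 0.0155). EGLN2 and VHL differed from HIF1A by -0.80 and -0.59 there (limma adjusted p at most 0.00015). HIF1AN differed from HIF1A by 0.04 (95% interval -0.16 to 0.25) and ARNT by -0.26 (95% interval -0.54 to 0.03), which did not pass.

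Over the 12 arrays, which form 4 groups of 3, the log2 levels of ARNT, EGLN1 and VEGFA had a Pearson's r with HIF1A of 0.82, 0.76 and 0.707, EGLN3 had 0.218, VHL -0.046, EPAS1 -0.27, HIF1AN -0.577 and EGLN2 -0.584. These are descriptions and carry no test. The genes most like HIF1A by this measure were GAP43 (r = 0.995), NFKBIA (0.991), DESI2 (0.991), ATAD2B (0.99) and a transcript known here by its accession alone. GAP43, a growth cone protein, followed HIF1A closely in direction, at 0.315 of control with DBP5 siRNA, 1.85 with GLE1 siRNA and 1.14 with IPPK siRNA, and NFKBIA, an inhibitor of NF-kappaB, at 0.714, 1.23 and 1.08.

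Beyond VEGFA and CA9, 43 of 47 listed HIF target genes were kept. After DBP5 siRNA 16 were lower and 12 higher, against 27.5% and 26.7% of all genes, with a median log2 change of -0.06 (all genes -0.024). After GLE1 siRNA 9 were lower and 24 higher, against 31.5% and 30.6%, with a median of 0.40 (all genes 0.014). After IPPK siRNA 14 were lower and 17 higher, against 28% and 27.3%, with a median of 0.07 (all genes -0.026). In percent, the targets called higher were 27.9%, 55.8% and 39.5% after DBP5, GLE1 and IPPK siRNA, and no set test was run on them. HIF1A was highest after GLE1 siRNA, while VEGFA and CA9 were below control there.

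Individual targets moved in both directions within each knock-down. HMOX1, which degrades heme and also answers to oxidative stress, rose to 8.36 ± 0.589 of control after GLE1 siRNA and 11.6 ± 0.127 after IPPK siRNA, and was at 1.96 ± 0.094 after DBP5 siRNA (SD, n = 3 each; limma adjusted p at most 2.1e-06). KDM4B, a histone demethylase that uses oxygen, rose to 2.66 ± 0.0558, 4.28 ± 0.094 and 3.00 ± 0.0618 after DBP5, GLE1 and IPPK siRNA, and its second probe rose in all 3. ADM, the vasodilator peptide adrenomedullin, fell to 0.707 ± 0.0562, 0.295 ± 0.0381 and 0.389 ± 0.0264 after DBP5, GLE1 and IPPK siRNA. ANKRD37 fell to 0.389 ± 0.0304, 0.46 ± 0.017 and 0.823 ± 0.0369 after DBP5, GLE1 and IPPK siRNA, and ZNF395 to 0.491 ± 0.0198, 0.569 ± 0.0203 and 0.48 ± 0.00779. SLC2A3, the glucose transporter GLUT3, fell to 0.395 ± 0.0586 after DBP5 siRNA and rose to 2.16 ± 0.0775 after GLE1 siRNA, with the same directions by its second probe, and fell to 0.621 ± 0.0301 after IPPK siRNA (limma adjusted p = 9.9e-05). LOX, which crosslinks collagen, rose to 1.44 ± 0.0511 after DBP5 and 5.90 ± 0.0617 after IPPK siRNA and fell to 0.638 ± 0.0498 after GLE1 siRNA. The glycolytic PFKP and ENO2 both fell to 0.461 after IPPK siRNA, and to 0.789 and 0.706 after DBP5 siRNA. After GLE1 siRNA they were at 1.10 and 1.14, which did not pass (limma adjusted p = 0.0613 and 0.0712). The second PFKP probe rose to 1.19 there (limma adjusted p = 0.00916 over all probes). ERO1A, an oxidase of the endoplasmic reticulum, rose to 2.03 ± 0.00816, 1.62 ± 0.109 and 2.62 ± 0.0427 after DBP5, GLE1 and IPPK siRNA.

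**Figure D4:**
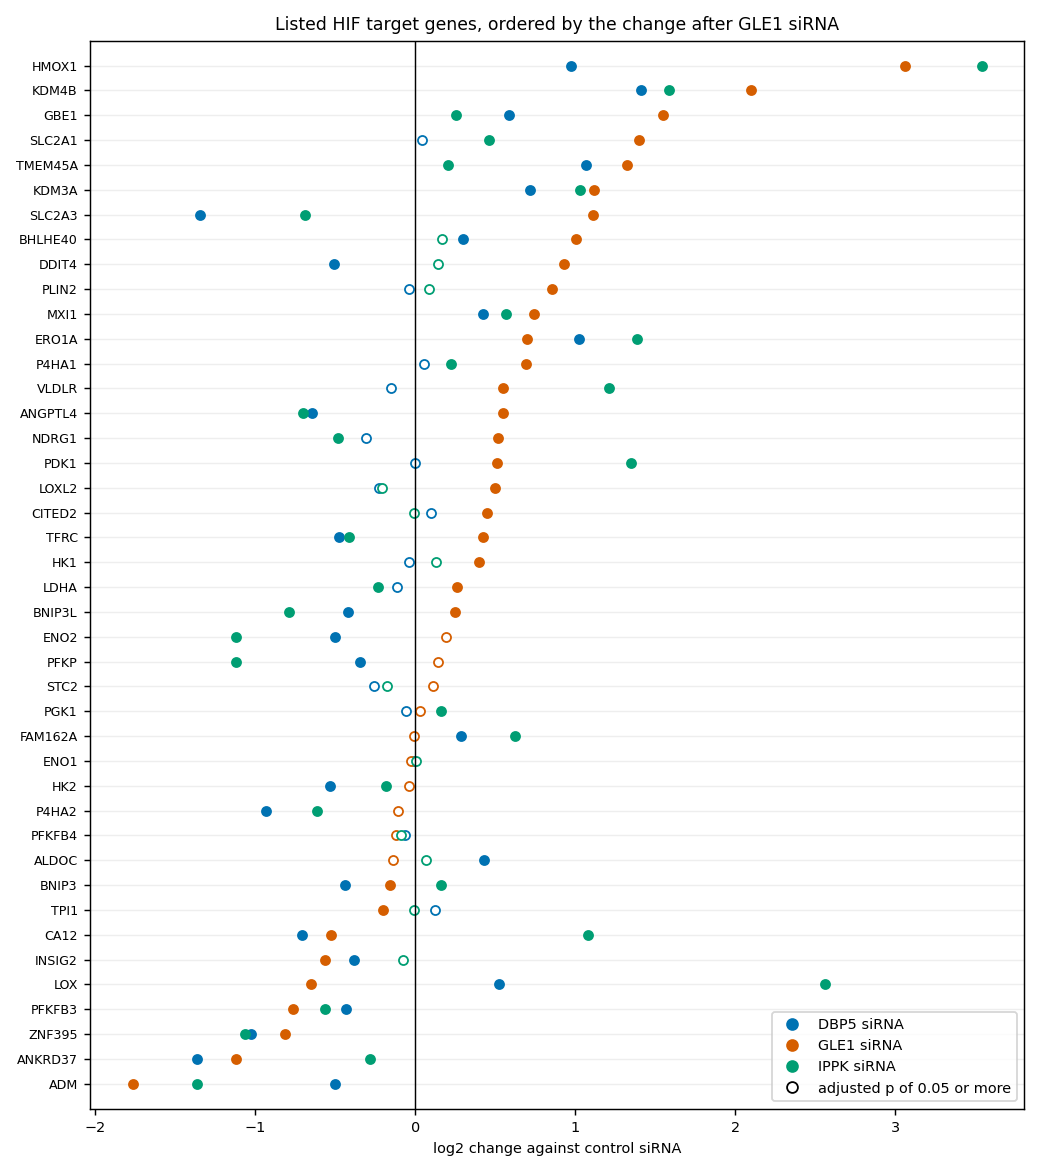
The log2 change against control siRNA (horizontal axis) of 42 of the 43 kept HIF target genes outside VEGFA and CA9 is shown for each knock-down, ordered by the change after GLE1 siRNA, with open points where the limma adjusted p was 0.05 or more. Of the genes drawn, 23 were higher and 9 lower after GLE1 siRNA, while the points of DBP5 and IPPK siRNA scatter on both sides of 0.

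The other partners of VHL were read from a list of 16 ligase subunits and degradation factors, all kept. After DBP5, GLE1 and IPPK siRNA 8, 9 and 6 were lower and 3, 5 and 3 higher, with medians of -0.18, -0.29 and -0.06. Lower were 50%, 56.2% and 37.5%, against 27.5%, 31.5% and 28% of all genes. Higher were 18.75%, 31.25% and 18.75%, against 26.7%, 30.6% and 27.3% of all genes. ELOB, the elongin B subunit of the VHL ligase, fell as VHL did in all 3 knock-downs, to 0.488 ± 0.0126, 0.465 ± 0.0185 and 0.549 ± 0.0102 of control (SD, n = 3 each; limma adjusted p at most 1.2e-07). Its partner ELOC fell to 0.765 ± 0.0909 after DBP5 and 0.754 ± 0.0409 after GLE1 siRNA, and was at 0.884 ± 0.0848 after IPPK siRNA, which did not pass (limma adjusted p = 0.143). RBX1, the ring subunit of the ligase, fell to 0.691 ± 0.0325 after GLE1 siRNA and rose to 1.28 ± 0.0374 after IPPK siRNA.

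Of 8 kept HIF and ARNT relatives (of 10 listed), 1, 4 and 0 were lower and 3, 1 and 4 higher after DBP5, GLE1 and IPPK siRNA, or 12.5%, 50% and 0% lower (27.5%, 31.5% and 28% of all genes) and 37.5%, 12.5% and 50% higher (26.7%, 30.6% and 27.3%). NPAS2, a clock factor, fell to 0.422 ± 0.0566 after GLE1 siRNA and rose to 1.35 ± 0.0326 after IPPK siRNA, the same directions as EPAS1, and BMAL1, its clock partner, rose in all 3, to 1.76 ± 0.197, 1.32 ± 0.106 and 1.51 ± 0.313. Of 12 coactivators and partners, 2, 4 and 3 were lower and 4, 4 and 1 higher, or 16.7%, 33.3% and 25% lower and 33.3%, 33.3% and 8.33% higher beside the same shares of all genes. KAT2B, an acetyltransferase, rose in each, to 1.67 ± 0.189, 2.94 ± 0.107 and 2.07 ± 0.359, while CREBBP, whose docking HIF1AN controls, fell to 0.818 ± 0.0966 after DBP5 siRNA and rose to 1.33 ± 0.0815 after GLE1 siRNA. Of 19 other oxygen-dependent dioxygenases (of 20 listed), 2, 2 and 6 were lower and 9, 11 and 8 higher. Lower were 10.5%, 10.5% and 31.6%, against the 27.5%, 31.5% and 28% of all genes. Higher were 47.4%, 57.9% and 42.1%, against the 26.7%, 30.6% and 27.3% of all genes. ADO, a cysteine dioxygenase that also senses oxygen, rose to 1.22 ± 0.0872, 2.31 ± 0.0578 and 1.28 ± 0.0205 after DBP5, GLE1 and IPPK siRNA. TET1, a DNA demethylase, rose to 2.51 ± 0.177 after DBP5 and 1.35 ± 0.0393 after IPPK siRNA, and its second probe rose in both. After GLE1 siRNA TET1 was at 0.912 ± 0.0378, which did not pass (limma adjusted p = 0.0682). By the second probe it fell to 0.449 there (limma adjusted p = 0.00091 over all probes). PLOD2, a collagen lysyl hydroxylase, rose to 1.90 ± 0.172 after GLE1 siRNA and fell to 0.75 ± 0.0659 and 0.67 ± 0.0147 after DBP5 and IPPK siRNA. The 3 listed HIF1A antisense transcripts matched 0 probes by accession and were not analysed here.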

How the data were processed

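Cytoplasmic RNA of 12 U2OS cultures (4 siRNAs, 3 arrays each) was measured on one-colour Agilent arrays. The authors deposited the linear intensity of each spot after local background subtraction (Feature Extraction 10.7.3.1), with the median signal of spot and background, and a table of log2 values normalized by LOESS in R. That table follows the spot signal without background subtraction, its column medians are 7.75 to 7.76, and its background setting is not given in the sources used here. Here, control and outlier spots were left out, spots of a probe averaged, and the log2 intensity normalized by cyclic loess (limma 3.58.1, R 4.3.3). Probes were named through RefSeq accessions (26449 of 34127). The probe with the highest mean stood for a gene, and 20821 of 27522 gene names were kept. limma was fitted over all 12 arrays with 1 mean per siRNA, two-sided, and tested on simulated data. Depth has no count on arrays, and the number of arrays and the signal over background limit the precision.

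The members, gene lists and tests were chosen with earlier results of these data known. Named beside the 10 genes and the siRNA targets are, per list and knock-down, genes among the 3 largest falls and 3 largest rises that passed, were well above background on all arrays and had all 3 arrays on one side of control, and the 5 genes most like HIF1A. Outside this rule, VIM, PTPRC, CDH5, HBB and CDH1 are named as cell type markers for their signal over background, and MIAT was chosen after its values were seen. A slide carried 4 arrays, 1 for each siRNA, that share a replicate number, and same-numbered arrays deviated together (r 0.318 to 0.513 for 18 pairs, against -0.285 to -0.05 for 36 others), so the number pairs the arrays. Alternatives were 75th percentile scaling, quantile normalization, normexp (offset 50, on median signals), the processed values of the authors, both filters, other probe rules, the replicate block, the 6 arrays compared alone, the methods' t-test in its paired form, and leaving out each array. The methods name a paired t-test for their statistics in general. For the arrays they name rank-product gene lists, which were not run here. Promoter windows came from RefSeq (GRCh38.p14), and a planned comparison of protein sequences was not run. 1 gene of the HIF target list is counted but not reported by name here. Figures were drawn with matplotlib 3.10.9.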

Additional observations from a re-analysis of the deposited data

How the results depend on the processing

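Of the counts above, those of members and of targets stayed within 1.5 times their value under every alternative except the methods' t-test, run paired on the replicate numbers. With that test 7 targets were lower and 6 higher after DBP5 siRNA. Of all 20821 genes it called 2603 lower and 2443 higher there, against 5733 and 5569 in the main fit. The members that passed were 3 after IPPK siRNA and 3 for DBP5 against IPPK siRNA. After IPPK siRNA it called 3689 of all genes lower and 3943 higher, against 5838 and 5687. The loss of calls with this test was thus seen over all genes as well. Members whose change differed from that of HIF1A numbered 5 after DBP5 and 2 after IPPK siRNA by it. For these differences and for DBP5 against IPPK siRNA, the share of all genes by the t-test was not counted. With the replicate block, 7, 9 and 7 members passed after DBP5, GLE1 and IPPK siRNA, and it changed no call of a member other than EPAS1 after DBP5 siRNA and HIF1A after IPPK siRNA. Of the 20821 genes the block called 6147, 6882 and 6336 lower and 5854, 6797 and 6071 higher after DBP5, GLE1 and IPPK siRNA. By the methods' t-test 14 calls of members were lost: EGLN3 in all 3 knock-downs, HIF1A, EPAS1, VEGFA and CA9 after IPPK siRNA, ARNT and EGLN2 in GLE1 against DBP5 siRNA, ARNT, EGLN2, EPAS1 and VEGFA in DBP5 against IPPK siRNA, and CA9 in GLE1 against IPPK siRNA (adjusted p from 0.0501 to 0.339). It gained 2, EGLN3 and VHL in GLE1 against DBP5 siRNA (adjusted p = 0.0484 and 0.0434). Leaving out 1 array gave 6 to 7, 9 and 7 to 8 members after DBP5, GLE1 and IPPK siRNA. Of the 20821 genes, those fits called 5211 to 5834 lower and 5089 to 5608 higher after DBP5 siRNA. After GLE1 siRNA they called 6101 to 6619 lower and 5860 to 6486 higher, and after IPPK siRNA 5281 to 5989 and 5195 to 5839.

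Changes that turned sign were small in the main setting, apart from VEGFA by probe. For VEGFA in GLE1 against IPPK siRNA the log2 difference was 0.015 by the brighter probe, -0.028 with scaling to the 75th percentile, -0.032 with quantile normalization, -0.093 with normexp, -0.11 in the processed values of the authors, -0.53 with the mean of the probes and -1.07 with the dimmer probe, and -0.066 to 0.075 when 1 array was left out. EGLN3 in DBP5 against IPPK siRNA was 0.020 with quantile normalization and -0.14 to 0.0064 with 1 array left out. With 1 array left out, EGLN1 in DBP5 against control ranged from -0.0029 to 0.12, ARNT in GLE1 against control from -0.15 to 0.035, and CA9 in DBP5 against IPPK siRNA from -0.26 to 0.32. The falls of HIF1A after DBP5 siRNA and of HIF1AN after GLE1 siRNA, the rise of HIF1A after GLE1 siRNA and the falls of VHL in all 3 knock-downs passed under each of their alternatives. The cause of the differences between settings was not tested. Signal over background limits CA9, which was well above it on 1 of 9 knock-down arrays.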
